A study of Homo sapiens with 36 samples.

Results

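PANC-1 is a human cell line from a pancreatic ductal carcinoma. Its transcriptome was set against those of 2 other carcinoma lines, MDA-MB-468, a basal-like breast cancer line, and WiDr, a colorectal adenocarcinoma line. The series holds 36 libraries of poly-A RNA in which a gene was silenced with hairpins or cut with guides, and the libraries used here are the hairpin controls, 9 of the 36, with 3 of each line, described as biological replicates. Cells of all 3 control groups expressed the non-silencing short hairpin RNA of the pGIPZ vector, labelled pGIPZ-NS, and all lines were grown in DMEM with fetal bovine serum. Libraries of the same lines with the targeting hairpins pGIPZ-#1 and pGIPZ-#2, 3 per line and hairpin, were used only to see whether a difference found in the controls was also found in other libraries. Each tissue is represented by 1 line, so a difference between lines cannot be told apart from a difference between tissues, donors or cultures, and in bulk RNA fewer cells with a transcript cannot be told apart from less of it per cell.

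Carcinomas arise from epithelia, whose cells are held together by cadherin, desmosome and tight junction proteins and whose identity is kept by transcription factors such as GRHL2, EHF and KLF5. In epithelial to mesenchymal transition, repressors of the ZEB and SNAI families bind the sequence CACCTG in epithelial genes, the junctions are lost, and vimentin, N-cadherin and matrix genes come on. Pancreatic cancer lines differ in how far they have moved along this path, and PANC-1 is widely used as a poorly differentiated one. Deletion of the cell cycle inhibitor gene CDKN2A and loss of SMAD4 are frequent in pancreatic cancer, and PANC-1 is known to lack the former and keep the latter. A segment of chromosome 19q is known to be amplified in this line.

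The 9 control libraries held between 30582799 and 38470613 counts, and ribosomal RNA genes took 1.59% to 9.60% of them. Replicates of a line were not equal in how long and short transcripts were covered. In PANC-1 replicate 1 the fifth of genes with the shortest transcripts lay 0.41 below the other PANC-1 libraries on the log2 scale at the median and the fifth with the longest lay 0.43 above them, and MDA-MB-468 replicate 1 deviated the other way, by 0.33 and -0.40. MDA-MB-468 replicate 2 deviated by -0.28 and 0.34, and the WiDr libraries by -0.07 to 0.06. Counts below are therefore also given without PANC-1 replicate 1 or MDA-MB-468 replicate 1 where that changes them by more than 1.5 times or ends a call. Levels are library-size-scaled counts (CPM), adjusted by the trimmed mean of M values (TMM), given in the order of replicates 1 to 3, and a gene was called when the edgeR quasi-likelihood test gave a Benjamini-Hochberg adjusted p under 0.05 and the difference was at least 1 on the log2 scale.

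Of 16112 genes tested, 3508 (21.8%) were higher and 3452 (21.4%) lower in PANC-1 than in MDA-MB-468, and 3818 (23.7%) were higher and 3648 (22.6%) lower than in WiDr. Both comparisons use the same PANC-1 libraries. The genes of interest are those called in the same direction against both lines, 1935 higher (12.0%) and 1695 lower (10.5%), while 801 genes were higher than one line and lower than the other. In 1927 of the 1935 the 3 PANC-1 libraries lay above all 6 others, and in 1640 of the 1695 they lay below them. The smaller of the 2 differences, from group means with empty groups raised to 3 counts per library, was at least 3 on the log2 scale for 668 higher and 494 lower genes and at least 5 for 261 and 220. No count was found in either other line for 146 of the higher genes, and none in PANC-1 for 130 of the lower ones. Without PANC-1 replicate 1 the counts were 1982 higher and 1814 lower, and without MDA-MB-468 replicate 1 they were 2046 and 1757.

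**Figure D1:**
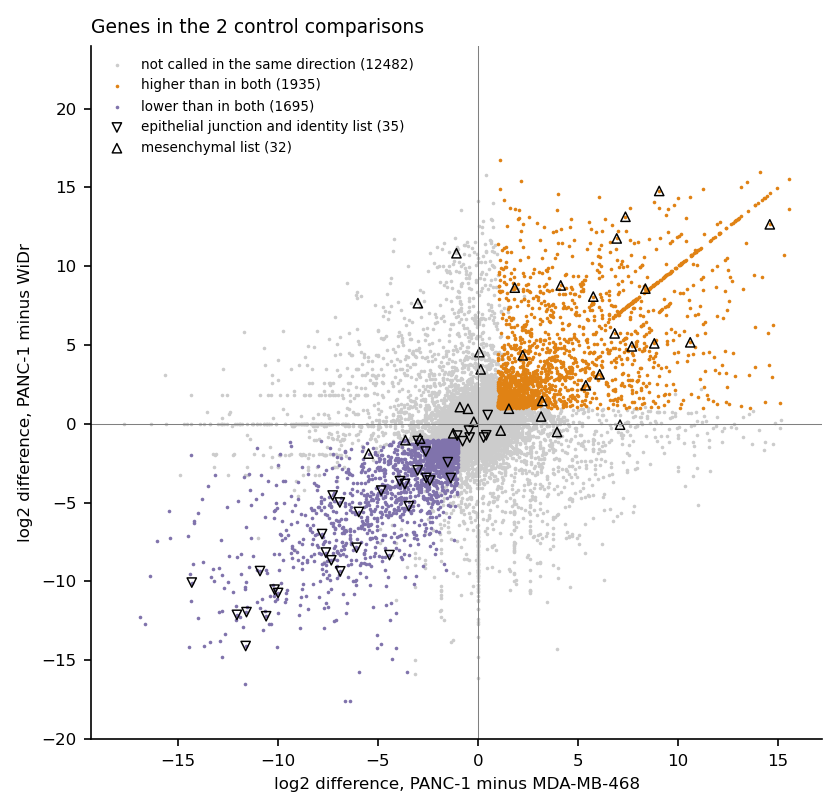
Each point is 1 of the 16112 genes tested, placed by its log2 difference between PANC-1 and MDA-MB-468 (x axis) and between PANC-1 and WiDr (y axis); orange and violet points are the 1935 genes higher and the 1695 lower than in both lines, and triangles mark the epithelial (35) and mesenchymal (32) lists. The epithelial genes lie toward the lower left and most mesenchymal genes toward the upper right; points far from 0 on straight lines are genes with no count in 1 group, whose fitted value depends on the prior count, and both axes share the PANC-1 libraries.

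The gene furthest above both other lines was CCL2, followed by L1CAM, BASP1 and COL11A1. CCL2, a chemokine that draws monocytes, had 180, 274 and 252 CPM in PANC-1, 1 count in all MDA-MB-468 libraries together and none in WiDr. L1CAM, an adhesion molecule of axons, had 992, 578 and 648 CPM in PANC-1, at most 0.435 CPM in MDA-MB-468 and at most 0.0322 CPM in WiDr. BASP1, a membrane protein of growth cones, had 155, 197 and 175 CPM against 0 in MDA-MB-468 and 1 count in WiDr. In all of these the PANC-1 libraries were far above every other library. COL11A1, a fibrillar collagen chain, had 242, 143 and 140 CPM and no count in the 6 other libraries, which puts it at least 2005-fold above MDA-MB-468 and at least 1862-fold above WiDr, taking 3 counts per library as the floor (adjusted p = 7.17e-06 and 6.99e-06). MEG3, an imprinted long noncoding RNA, had 90.1, 93.7 and 91.4 CPM and likewise no count elsewhere. PRAME, a cancer-testis antigen, had 145, 154 and 144 CPM against 0 in MDA-MB-468 and up to 0.161 in WiDr. The other 9 of the 15 furthest above both lines were EPDR1, SDK1, PPP1R14A, FBXO27, FBXO17, ADAMTS15, NID1, SPG20 and the N-cadherin gene CDH2.

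Of the 15 genes furthest below both lines 5 are on the epithelial list described next, MAL2, EHF, RAB25, GRHL2 and LAD1. MAL2, a protein of apical transport on chromosome 8, had 0.128, 0.0581 and 0.0285 CPM in PANC-1 against 229, 240 and 260 in MDA-MB-468 and 1423, 1284 and 1348 in WiDr. EHF, an epithelial ETS transcription factor, had 0.486, 0.145 and 0.199 CPM in PANC-1, 256, 392 and 349 in MDA-MB-468 and 444, 400 and 423 in WiDr, a log2 difference of -10.17 (SE 0.34) and -10.52 (SE 0.34). No PANC-1 library came near a library of the other lines for either gene. ALDH1A1, a retinaldehyde dehydrogenase, had 2 counts in the 3 PANC-1 libraries together, against a mean of 175 ± 8.79 CPM (SD, n = 3) in MDA-MB-468 and 85.4 ± 1.76 CPM in WiDr. Further genes among the 15 furthest below were the secreted protease gene KLK6, the mucin-type glycosyltransferase GALNT3, the stem cell surface protein PROM1, S100A14, TRIM29, ANXA3, ADGRF1 and DUSP4.

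Of 35 epithelial junction and identity genes, all tested, 28 were lower in PANC-1 than in both lines and none was higher, where 10.5% and 12.0% of all genes tested were. This list and those below were drawn up with earlier results of these data known. Their shares therefore describe the listed genes and are not an independent test. Their median difference was -4.43 against MDA-MB-468 and -4.55 against WiDr, beside 0.00 and 0.02 for all genes. CDH1, which encodes E-cadherin (chromosome 16, 68737225 to 68835548 in GRCh38), had 15, 12.3 and 9.83 CPM in PANC-1, 114, 160 and 136 in MDA-MB-468 and 473, 452 and 468 in WiDr. The 3 lines did not overlap, and PANC-1 was the lowest. The log2 difference was -3.46 (SE 0.18, adjusted p = 1.37e-07) against MDA-MB-468 and -5.23 (SE 0.19, adjusted p = 1.46e-08) against WiDr. EPCAM, the epithelial cell adhesion molecule, had 32.9, 48.2 and 46.9 CPM in PANC-1, 585, 481 and 544 in MDA-MB-468 and 603, 594 and 611 in WiDr. Both genes thus kept some expression in PANC-1, unlike RAB25, GRHL2, LAD1 and PRSS8, which follow.

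RAB25, a small GTPase of apical recycling, had 0.0512, 0.0290 and 0 CPM in PANC-1, which are 3 counts in all, against 116, 80.1 and 90.4 in MDA-MB-468 and 122, 127 and 121 in WiDr. GRHL2, a grainyhead factor that maintains CDH1 expression, had 2 counts in PANC-1 and means of 93.9 ± 20.9 CPM (SD, n = 3) in MDA-MB-468 and 98.1 ± 4.05 CPM in WiDr. LAD1 had 0.0512, 0.465 and 0 CPM in PANC-1 and at least 159 CPM in every library of the other lines. PRSS8, an apical serine protease, had 3 counts in PANC-1 and means of 48.4 ± 10.4 CPM in MDA-MB-468 and 148 ± 8.35 CPM in WiDr. The 7 members that were not called lower than both lines were JUP, CLDN4, SPINT2, OCLN, PKP3, ESRP2 and MARVELD2. Among them the tight junction gene OCLN, chosen after its values were seen, had 73.8, 81.1 and 69.2 CPM in PANC-1, above all 6 other libraries, which lay between 47.8 and 56.7 CPM. The count of 28 was the same without PANC-1 replicate 1 and without MDA-MB-468 replicate 1.

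The motif CACCTG, read on either strand, was looked for in RefSeq promoters (GRCh38.p14, 250 bases before to 50 after each start), because it is the sequence ZEB1 and SNAI1 bind. It was present in 7231 of 35116 promoters (20.6%), in 14 of 27 promoters of the epithelial list (51.9%) and in 7 of 45 of the mesenchymal list (15.6%). The table held promoters for 19 of the 35 epithelial and 25 of the 36 mesenchymal genes, and CDH1, EPCAM, GRHL2 and MAL2 were not matched. Of the 28 genes lower than in both lines, 15 had promoters in the table, and 11 of their 21 promoters held the motif (52.4%). A match describes the letters in this window and is not evidence of binding. The 3 sequences below are those of the epithelial genes furthest below both lines among those matched that hold the motif, each given as the 250 bases before the start, 5′ to 3′ on the gene's strand, with the motif or its reverse complement in capitals. The RAB25 promoter is on the plus strand at chr1:156060910-156061159, with the motif beginning 41 bases before the start.
RAB25: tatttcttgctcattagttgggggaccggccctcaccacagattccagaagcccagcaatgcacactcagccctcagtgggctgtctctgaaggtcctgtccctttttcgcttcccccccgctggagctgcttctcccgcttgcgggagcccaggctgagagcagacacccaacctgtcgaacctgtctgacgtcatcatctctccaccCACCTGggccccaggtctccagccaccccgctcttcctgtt
The LAD1 promoter is on the minus strand at chr1:201399325-201399574, with matches beginning 61 and 35 bases before the start.
LAD1: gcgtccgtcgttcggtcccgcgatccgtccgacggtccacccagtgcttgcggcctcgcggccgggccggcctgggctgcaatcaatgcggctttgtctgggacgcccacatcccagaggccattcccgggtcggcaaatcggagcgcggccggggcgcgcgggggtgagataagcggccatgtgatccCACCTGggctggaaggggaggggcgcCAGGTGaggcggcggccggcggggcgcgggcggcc
The promoter of SPINT1, an inhibitor of epithelial serine proteases, is on the plus strand at chr15:40844227-40844476, with a match beginning 26 bases before the start.
SPINT1: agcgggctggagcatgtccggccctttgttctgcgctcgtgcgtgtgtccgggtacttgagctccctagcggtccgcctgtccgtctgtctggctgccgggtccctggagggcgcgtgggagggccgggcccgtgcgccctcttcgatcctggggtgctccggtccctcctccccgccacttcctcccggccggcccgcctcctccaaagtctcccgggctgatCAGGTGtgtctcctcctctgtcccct

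Of 36 mesenchymal genes 32 were tested, and 16 of these were higher in PANC-1 than in both lines (12.0% of all genes) and 2 lower (10.5%). The medians were 3.19 against MDA-MB-468 and 3.90 against WiDr, or 2.84 and 3.30 with genes that had an empty group held at the floor of 3 counts per library. SNAI2, TWIST1, PRRX1 and CDH11 had too few counts in every line to be tested. VIM, which encodes the intermediate filament vimentin (chromosome 10, 17228259 to 17237593), had 3450, 4246 and 4008 CPM in PANC-1, 6.41, 7.22 and 8.16 in MDA-MB-468 and 0.129, 0.177 and 0.0976 in WiDr. The lines were thus ordered PANC-1, MDA-MB-468, WiDr without overlap, with log2 differences of 9.07 (SE 0.18, adjusted p = 8.78e-10) and 14.77 (SE 0.24, adjusted p = 3.7e-10). CDH2, the N-cadherin gene, had 107, 84.1 and 81.9 CPM in PANC-1, no count in MDA-MB-468 and 1 count in WiDr, so that it was at least 1042-fold above MDA-MB-468.

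ZEB1, the repressor named above, had 43.1, 26.8 and 27.3 CPM in PANC-1, 0, 0.168 and 0.0310 in MDA-MB-468 and 1.32, 1.00 and 0.488 in WiDr. Every PANC-1 library lay above all others, with a log2 difference of 8.82 (SE 0.57, adjusted p = 6.28e-07) and 5.10 (SE 0.42, adjusted p = 3.08e-06). SPARC, a matrix glycoprotein, had 31.5, 34.0 and 33.3 CPM in PANC-1, at most 0.199 in MDA-MB-468 and no count in WiDr. MMP2, a gelatinase, had 173, 155 and 145 CPM in PANC-1 against at most 1.59 and 0.0644 CPM in the other lines. THY1, a surface glycoprotein of stromal cells, and WNT5B, a noncanonical Wnt ligand, had means of 17.3 ± 0.566 and 15 ± 2.86 CPM (SD, n = 3) in PANC-1, and no library of the other lines exceeded 0.142 CPM for THY1 or 0.456 CPM for WNT5B. AXL, a receptor tyrosine kinase often high in mesenchymal cancer cells, had 242, 200 and 208 CPM in PANC-1, 1.08, 1.01 and 1.02 in MDA-MB-468 and 6.6, 7.17 and 7.77 in WiDr.

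The mesenchymal list did not move as 1 block. CALD1, an actin-binding protein, had 4.56, 4.24 and 3.84 CPM in PANC-1, 163, 203 and 196 in MDA-MB-468 and 15.7, 15.1 and 16 in WiDr, so that it was lowest in PANC-1. FN1, which encodes fibronectin, had 1.64, 1.02 and 1.37 CPM in PANC-1, 10.7, 22.2 and 17.1 in MDA-MB-468 and 2.71, 3.31 and 2.28 in WiDr. Its difference from WiDr was -1.04 (SE 0.31, adjusted p = 0.0122) and lost the call without PANC-1 replicate 2 (-0.86) or WiDr replicate 2 (-0.88). Neither fall was called against both lines in the libraries of hairpin 1.

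**Figure D2:**
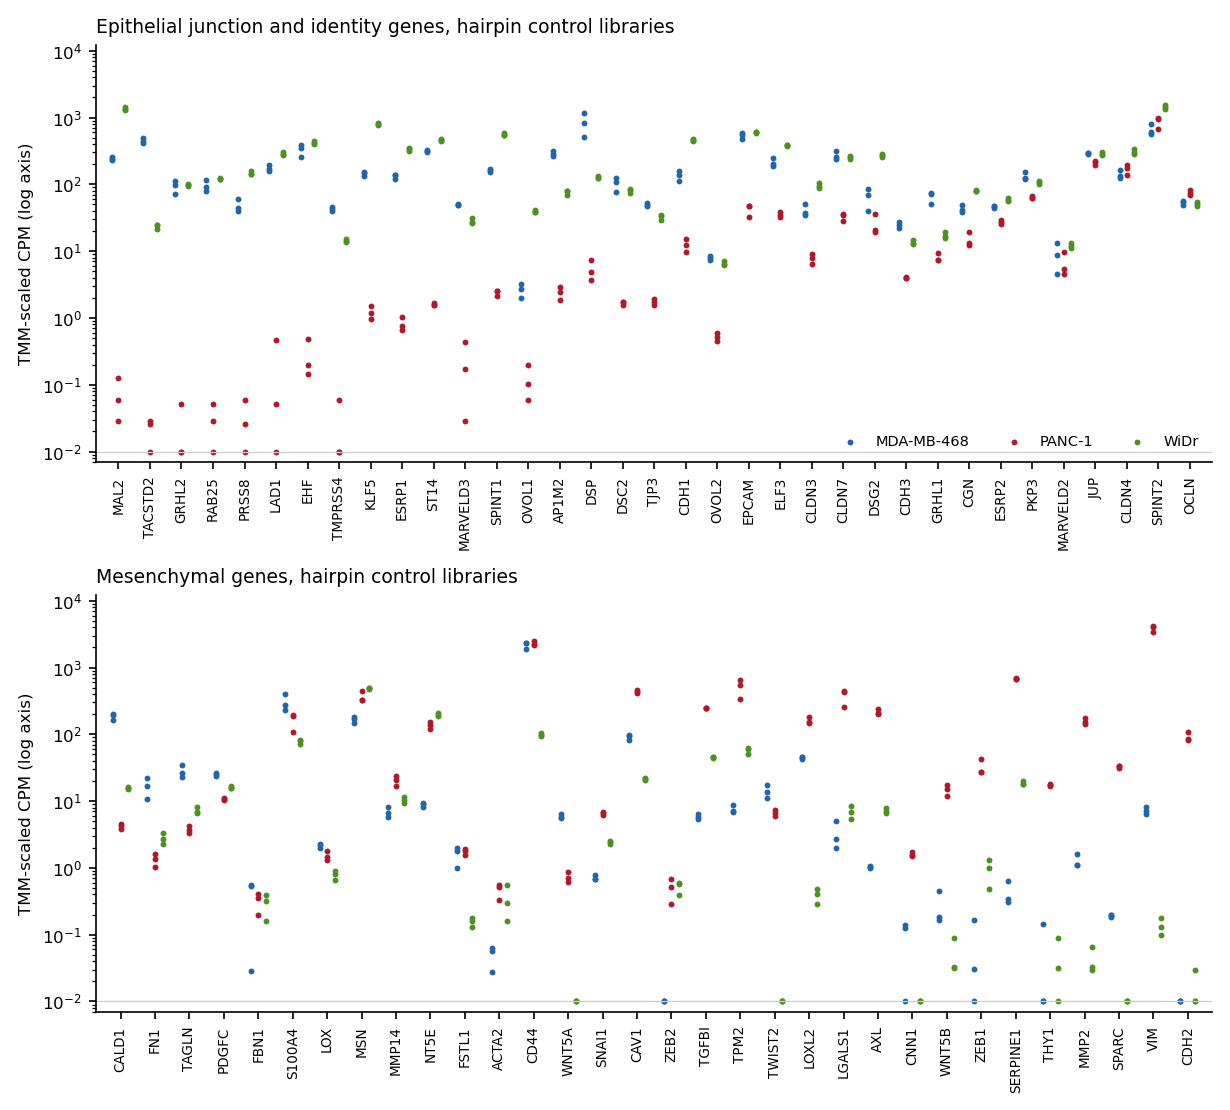
TMM-scaled CPM on a log axis of the 35 epithelial genes (top) and the 32 tested mesenchymal genes (bottom) in each of the 9 control libraries, 1 point per library, coloured by line and ordered by the size of the difference; the grey line at the bottom marks libraries with a count of 0. In most epithelial genes the 3 PANC-1 points lie below the others (CDH1 9.83 to 15 CPM), and in the 16 mesenchymal genes called higher they lie above all others (VIM 3450 to 4246 CPM).

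Markers of other cell types were read in the same libraries. Of 14 markers of immune cells, fibroblasts and endothelium 9 were tested, and 2, CD68 and PDGFRB, were higher in PANC-1 than in both lines (12.0% of all genes) and none was lower. CD68, a lysosomal protein also made outside macrophages, had 74.1, 86.8 and 85.2 CPM, and PDGFRB, a receptor of mural cells and fibroblasts, 1.71, 1.74 and 1.08. The fibrillar collagen gene COL1A1 had 19.2, 9.12 and 11.2 CPM in PANC-1 and 8.49, 10.9 and 8.22 in MDA-MB-468, and the monocyte marker CD14 had 1.36, 1.97 and 2.19 CPM in PANC-1 and at least 15.7 in MDA-MB-468. The leukocyte marker PTPRC, the T cell marker CD3E, the fibroblast genes DCN, LUM and COL1A2 and the endothelial genes PECAM1, VWF and CDH5 were each at or below 0.199 CPM in every PANC-1 library, with CDH5 at 0. The summed level of the list was 96.6 to 100 CPM in PANC-1, 32.9 to 42.0 in MDA-MB-468 and 1540 to 1568 in WiDr, where LYZ, an antibacterial enzyme, accounted for at least 1528 CPM. The part of such cells in the mesenchymal differences was not tested.

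Of 18 duct and progenitor markers 16 were tested, with 2 higher than in both lines, near the share of all genes (12.0%), and 5 lower (10.5% of all genes), and medians of -0.79 and -1.20. Their summed level was 1861 to 2605 CPM in PANC-1, 2836 to 3959 in MDA-MB-468 and 1000 to 1032 in WiDr. PDX1, the homeobox factor of the pancreatic bud, had 8.81, 8.25 and 6.98 CPM in PANC-1, none in MDA-MB-468 and 0.934, 1.18 and 1.17 in WiDr, a log2 difference from WiDr of 2.87 (SE 0.20, adjusted p = 6.36e-06). NKX6-1, a factor of progenitors and beta cells, had 0.614, 0.581 and 0.484 CPM in PANC-1 and no count in the other lines. Both were thus present in every PANC-1 library, NKX6-1 at a low level. The duct keratin gene KRT19 had 1647, 2279 and 2399 CPM in PANC-1, which overlapped MDA-MB-468 (1962, 1282 and 1391; log2 difference 0.45, SE 0.19, adjusted p = 0.0576) and lay above WiDr (377, 431 and 408). SOX9, a duct transcription factor, had 122, 111 and 108 CPM and did not pass against MDA-MB-468, with a difference of -0.01 (SE 0.10). KRT7, the other duct keratin, had 5.61, 8.51 and 7.69 CPM against 1571, 1092 and 1169 in MDA-MB-468.

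The 5 duct and progenitor markers that were lower were PROM1, GATA6, the bicarbonate transporter SLC4A4, the Notch target HES1 and ONECUT2. GATA6, an endoderm factor of well differentiated pancreatic tumours, had 0.0512, 0.0581 and 0.114 CPM in PANC-1, 10.1, 9.58 and 11.3 in MDA-MB-468 and 69.1, 68.5 and 67.5 in WiDr. HES1 had 15.3, 20.9 and 20.2 CPM in PANC-1 and between 62.1 and 95.2 in the 6 other libraries. In all, 4 of 16 acinar markers were tested, and 1 of them, the trypsinogen gene PRSS1, was called lower than both; it had no count in PANC-1, 191 to 206 CPM in WiDr and at most 0.0854 CPM in MDA-MB-468, and the call against MDA-MB-468 was lost whenever any 1 PANC-1 library was left out. Of the hormone genes INS, GCG and PPY had no count in PANC-1 and SST had 1.

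Of 20 endocrine and neuroendocrine markers 9 were tested, and 4 were higher than in both lines, against 12.0% of all genes, and 1 was lower. The medians were 1.82 and 0.04, or 0.83 and 0.04 with genes that had an empty group at the floor. CHGB, a granin of secretory granules, had 4.02, 4.21 and 4.10 CPM in PANC-1, at most 0.114 in MDA-MB-468 and none in WiDr. SYP, a synaptic vesicle protein, had 8.93, 10.9 and 11.9 CPM in PANC-1, 1.65, 1.06 and 1.4 in MDA-MB-468 and 0.548, 1.15 and 1.2 in WiDr, a log2 difference of 2.94 (SE 0.28) and 3.44 (SE 0.29). The somatostatin receptor gene SSTR2 and the granin gene SCG2 were the others, at means of 2.67 and 0.961 CPM. The master regulators NEUROD1, NKX2-2 and INSM1 were at or below 0.0581 CPM in PANC-1.

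Of 20 tested intestinal markers 2 were higher and 4 lower than in both lines, where 12.0% and 10.5% of all genes were, so the share of higher ones was near that of all genes. In the comparison with WiDr, the line of colorectal origin, 16 were lower and 4 higher (22.6% and 23.7% of all genes). CDX2, the caudal homeobox factor of the intestine, had 9.21, 10.7 and 11.2 CPM in PANC-1, none in MDA-MB-468 and 2.58, 3.16 and 3.15 in WiDr, where the difference was 1.80 (SE 0.17, adjusted p = 3.34e-05). The PANC-1 libraries were the highest, above those of the colorectal line. The 4 that were lower, KRT20, MUC2, ASCL2 and REG4, were at most 0.0581 CPM in PANC-1, and MUC2 and REG4 lost the call against MDA-MB-468 whenever any 1 PANC-1 library was left out.

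Of 16 basal breast markers tested 5 were lower than in both lines (10.5% of all genes) and none higher, and 11 were not called against both. Against MDA-MB-468, the line of that origin, 15 were lower and none higher (21.4% and 21.8% of all genes). Against WiDr 5 were lower and 4 higher (22.6% and 23.7% of all genes), with a median of -0.50. KRT17, a basal keratin, had 0.230, 0.319 and 0.228 CPM in PANC-1, 1091, 748 and 810 in MDA-MB-468 and 2.84, 2.51 and 2.76 in WiDr. Of 9 tested luminal markers 1 was higher and 7 lower than in MDA-MB-468 (21.8% and 21.4% of all genes). Against WiDr 2 were higher and 6 lower (23.7% and 22.6%). In both breast lists the share higher than in WiDr was near that of all genes. The 4 luminal markers lower than in both lines (10.5% of all genes) included FOXA1, a pioneer factor of endoderm and breast, at 1.79, 2.09 and 1.68 CPM against at least 48.7 in every other library. Lists of genes used to class pancreatic tumours, read against 12.0% higher and 10.5% lower of all genes, gave 1 higher (TFF2) and 6 lower of 18 tested classical genes and 0 higher and 12 lower of 19 tested basal-like genes. PANC-1 was therefore below both lines for most tested genes of the basal-like list, including the epidermal growth factor receptor ligand gene AREG (0.102, 0.203 and 0.0854 CPM) and the focal adhesion gene TNS4, with 2 counts in PANC-1. Among the 6 lower classical genes, CEACAM6 had 1224 counts in MDA-MB-468. KRT20, FAM3D, AGR3, VSIG2 and REG4 had only 31, 12, 12, 7 and 5 counts there, so these falls from MDA-MB-468 rest on few counts. With both hairpins 3 of the 6 were called, and TFF2 was called with hairpin 1 only.

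**Figure D3:**
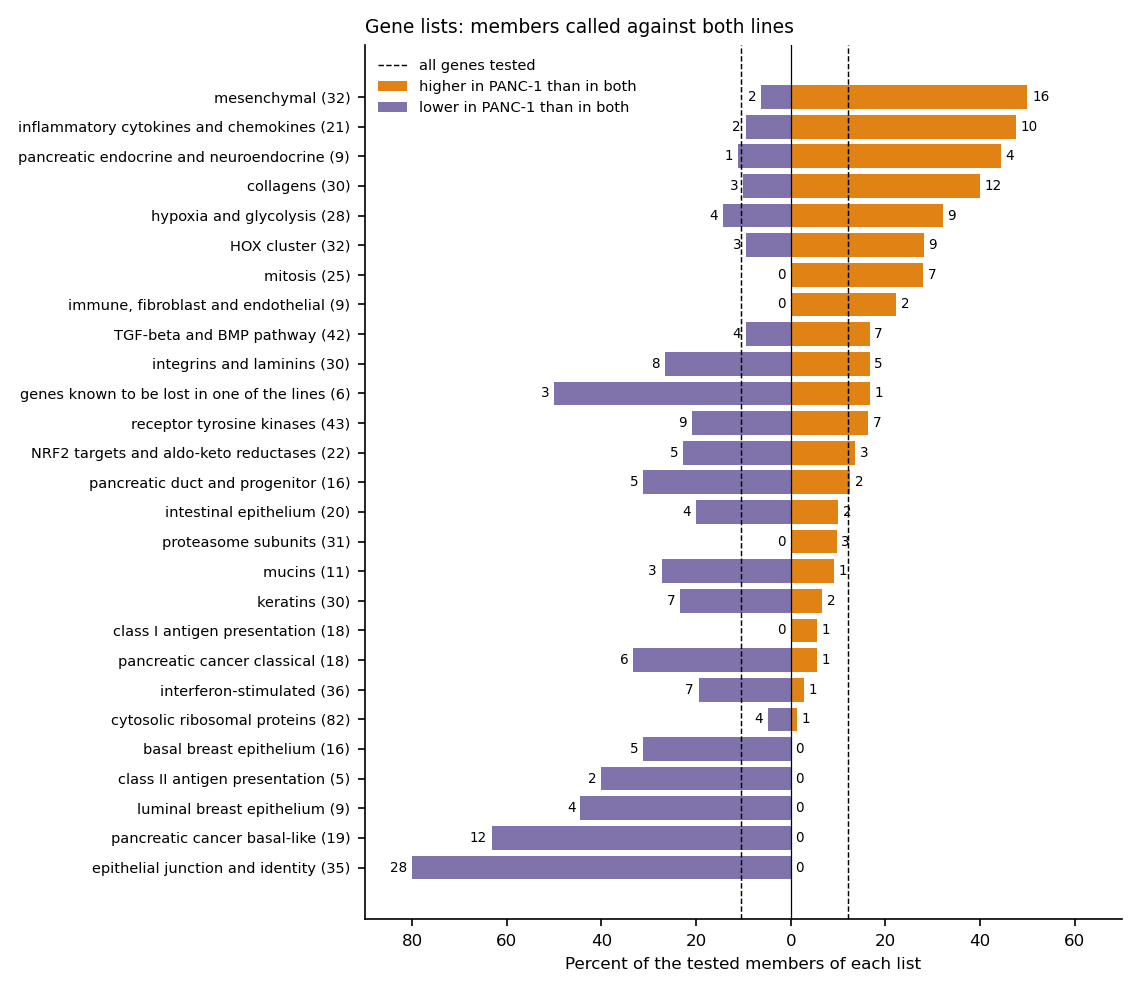
Percent of the tested members of each gene list that were called higher (orange, right) or lower (violet, left) in PANC-1 than in both other lines, with the number of genes at each bar and the number tested in parentheses; dashed lines mark all genes tested, 12.0% and 10.5%. The epithelial list has the longest bar to the left (28 of 35) and the mesenchymal list the longest to the right (16 of 32). The pancreatic acinar list, with 4 tested genes, is not drawn. List members were chosen with earlier results of these data known.

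Of 55 keratin genes 30 were tested. Against MDA-MB-468 25 were lower and 3 higher (21.4% and 21.8% of all genes). Against WiDr 7 were lower and 8 higher, near the 22.6% and 23.7% of all genes. Lower than in both lines were 7 (10.5% of all genes), and 2 were higher (12.0%). KRT8, a keratin of simple epithelia, was higher than in both lines at 4283, 5453 and 5576 CPM, against 2127, 1493 and 1650 in MDA-MB-468 and 2079, 2309 and 2170 in WiDr. Its difference from WiDr was 1.22 (SE 0.16) and fell to 0.78 when the WiDr libraries with a non-targeting guide were used in place of the hairpin controls. PANC-1 thus combined the highest vimentin level of the 3 lines with the highest KRT8 level. Of 11 tested mucin genes MUC16 was higher and MUC2, MUC20 and MUC5B were lower than in both lines, 1 and 3 genes, beside 12.0% and 10.5% of all genes. MUC2 had only 19 counts in MDA-MB-468, and 1 of the 3 lower mucins was called with both hairpins.

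Of 30 tested collagen genes 12 were higher in PANC-1 than in both lines (12.0% of all genes), 3 were lower (10.5%) and 15 were not called against both, with medians of 1.22 and 2.82. In each of the comparisons 8 collagens were lower, beside 21.4% of all genes against MDA-MB-468 and 22.6% against WiDr. Beside COL11A1 the higher collagens included COL5A2, a fibrillar chain with 257, 177 and 168 CPM in PANC-1, 2.90, 6.66 and 6.42 in MDA-MB-468 and 0.290, 0.413 and 0.585 in WiDr. COL5A1, COL6A1, COL6A2 and COL12A1 were also higher, COL6A2, a chain of beaded filaments, with a mean of 10.3 ± 1.18 CPM (SD, n = 3) against 1 count in MDA-MB-468 and none in WiDr. The lower ones were chains of basement membrane collagen, COL4A1, COL4A2 and COL4A4, at most 0.436 CPM in PANC-1. Only COL4A2 kept the call when PANC-1 replicate 2 or WiDr replicate 1 was left out, and with the WiDr guide controls.

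Among 30 tested integrins and laminins 5 were higher and 8 lower than in both lines, beside 12.0% and 10.5% of all genes. ITGA5, the alpha chain of the fibronectin receptor, had 163, 123 and 134 CPM in PANC-1, 5.81, 5.52 and 5.74 in MDA-MB-468 and 2 counts in WiDr. ITGB3, the beta chain of the vitronectin receptor, had 19.1, 9.09 and 9.51 CPM in PANC-1 and at most 0.0931 CPM elsewhere. In contrast ITGB6, an epithelial integrin that activates latent TGF-beta, had 0.179, 0.116 and 0.171 CPM in PANC-1, 75.6, 110 and 100 in MDA-MB-468 and 43.2, 40.9 and 40.7 in WiDr. LAMB3, a chain of the epithelial laminin 332, had 0.921, 0.639 and 0.797 CPM in PANC-1 and at least 20 CPM in every other library. The log2 differences of ITGB6 were -9.22 (SE 0.23) and -8.02 (SE 0.23), and those of LAMB3 -4.81 (SE 0.14) and -8.70 (SE 0.16).

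Of 21 tested inflammatory cytokines and chemokines 10 were higher than in both lines (12.0% of all genes) and 2 lower (10.5%), with medians of 1.66 and 1.45. Besides CCL2 they were CXCL1, CCL5, IL32, CSF1, CXCL5, CXCL2, CCL20, CXCL8 and IL11. CXCL1, a chemokine for neutrophils, had 35.5, 52.4 and 54.7 CPM in PANC-1, 0.484, 0.224 and 0.0931 in MDA-MB-468 and 0.644, 0.826 and 1.2 in WiDr. CSF1, the macrophage growth factor, had 313, 239 and 256 CPM in PANC-1, 21.8, 24.4 and 21.7 in MDA-MB-468 and 6.35, 6.88 and 5.37 in WiDr, a log2 difference of 3.57 (SE 0.14, adjusted p = 2.34e-08) and 5.44 (SE 0.16, adjusted p = 3.37e-09). For both genes every PANC-1 library lay above all others. The death ligand gene TNFSF10 and the membrane-bound chemokine gene CXCL16 were lower, at means of 2.36 ± 0.340 and 3.62 ± 0.149 CPM in PANC-1.

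Of 36 interferon-stimulated genes, all tested, 14 were higher and 7 lower than in MDA-MB-468 (21.8% and 21.4% of all genes), while 1 was higher and 29 were lower than in WiDr (23.7% and 22.6%), with medians of 0.68 and -2.48. The 7 lower than in both lines, beside 10.5% of all genes, were MX1, OAS1, IFI44, USP18, HERC6, RSAD2 and CMPK2. OAS1, a sensor of double-stranded RNA, had 1.15, 1.95 and 1.79 CPM in PANC-1, 26.1, 19.2 and 20.9 in MDA-MB-468 and 83.4, 86.1 and 83.4 in WiDr. The gene higher than in both was MX2, an antiviral GTPase, at 71.8, 63.0 and 61.2 CPM against at most 0.683 in MDA-MB-468 and 28.9, 27.9 and 27.5 in WiDr; with the WiDr guide controls its difference from WiDr was -0.09 in place of 1.22. In class I antigen presentation 1 of 18 tested genes, the immunoproteasome subunit PSMB9, was higher than in both lines and none was lower. Of 5 tested class II genes 2 were lower and none was higher, and neither fall was called with both hairpins. Of all genes 12.0% were higher and 10.5% lower, so the class I share of higher genes was below that of all genes.

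Receptor tyrosine kinases, which carry growth signals from the cell surface, gave 7 higher and 9 lower than in both lines of 43 tested, beside 12.0% and 10.5% of all genes. RET, the receptor for the glial factor family, had 58.9, 43.6 and 42.8 CPM in PANC-1, at most 0.168 in MDA-MB-468 and none in WiDr. EPHA7, an ephrin receptor, had 20.3, 15 and 13.5 CPM in PANC-1 and no count in the other lines, so that it was at least 186-fold and at least 173-fold higher (adjusted p = 8.88e-06 and 8.68e-06). AXL, ROR2, PDGFRB, PTK7 and TYRO3 were the other 5, and PTK7 lost the call against WiDr without PANC-1 replicate 1 (0.97) and with the WiDr guide controls (0.03). ERBB3, the partner of ERBB2 in neuregulin signalling, was lowest in PANC-1, with 0.665, 0.726 and 0.598 CPM against 67.4, 79.3 and 70.9 in MDA-MB-468 and 208, 204 and 196 in WiDr. INSR, the insulin receptor gene, had 0.793, 0.407 and 0.456 CPM in PANC-1 and between 27.2 and 35.9 CPM in all other libraries. EGFR spread widely within lines, with 189, 38.8 and 50.2 CPM in PANC-1 and 421, 1916 and 1050 in MDA-MB-468, against 52.4, 54.7 and 55.9 in WiDr, and it did not pass against WiDr.

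In the TGF-beta and BMP pathway 7 of 42 tested genes were higher than in both lines and 4 lower, shares close to the 12.0% and 10.5% of all genes, and the medians were 0.32 and 0.12. SMAD4, the common mediator, had 44.5, 40.0 and 40.5 CPM in PANC-1, 0.826, 0.644 and 0.341 in MDA-MB-468, a line known to have lost it, and 18.4, 16.8 and 16.2 in WiDr, with differences of 6.09 (SE 0.22) and 1.28 (SE 0.17). Of the ligands, BMP4 had 0.0768, 0.0290 and 0.0570 CPM in PANC-1, 7.72, 4.40 and 5.09 in MDA-MB-468 and 236, 257 and 242 in WiDr, and BMP2 was also lower. The BMP antagonist gene NOG was higher, at a mean of 3.23 ± 0.262 CPM (SD, n = 3) against 5 counts in MDA-MB-468 and none in WiDr. LTBP2, a latent TGF-beta binding protein of microfibrils, had 198, 104 and 105 CPM in PANC-1 against at most 2.79 and 1.63 CPM in the other lines. The receptor gene TGFBR2 had 61.9, 49.7 and 47.6 CPM, overlapping MDA-MB-468 and below WiDr (130, 129 and 131). Of the target genes ID1, a BMP-responsive inhibitor of differentiation, was higher than in both lines at 186, 277 and 303 CPM, against 17.2 to 25.6 in MDA-MB-468 and 49.8 to 56.3 in WiDr, and the pseudoreceptor BAMBI was lower.

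HOX genes, which record position along the body axis, gave 9 higher and 3 lower than in both lines of 32 tested, beside 12.0% and 10.5% of all genes. The 3 lower ones are near the share of all genes. HOXB2 had 45.2, 57.5 and 55.1 CPM in PANC-1, 0.370, 0.140 and 0.0310 in MDA-MB-468 and 0.419, 0.502 and 0.390 in WiDr. HOXC13, at the 5′ end of its cluster, had 112, 127 and 127 CPM in PANC-1, 26.6, 23.4 and 24.8 in MDA-MB-468 and 3.48, 2.71 and 4.07 in WiDr. The PANC-1 libraries were the highest for both. HOXC8, HOXC9, HOXB13, HOXC10, HOXB7 and HOXD4 were also higher, and the 3 lower genes were HOXA10, HOXA4 and HOXA7.

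Among 22 NRF2 targets and aldo-keto reductases 3 were higher than in both lines, near the 12.0% of all genes, and 5 were lower (10.5% of all genes). AKR1C1 had 0.256, 0.319 and 0.256 CPM in PANC-1, 292, 214 and 251 in MDA-MB-468 and 43.9, 47.5 and 46.7 in WiDr. AKR1C2 had no count in PANC-1, 501, 408 and 452 CPM in MDA-MB-468 and 18.5, 17.9 and 18.3 in WiDr, and AKR1C3 and AKR1B10, with 2 counts of the latter in PANC-1, were lower too. These enzymes reduce steroids and aldehydes, and reads of the near-identical AKR1C copies may be split between them. HMOX1, the heme oxygenase that NRF2 also drives, was higher, with 106, 135 and 132 CPM in PANC-1 against 10.1 to 12.4 in MDA-MB-468 and 9.69 to 10.6 in WiDr. The transporter gene ABCC2 was higher too, so the list did not move in 1 direction.

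Of 28 genes of hypoxia and glycolysis 9 were higher than in both lines (12.0% of all genes) and 4 lower, the latter near the 10.5% of all genes, with medians of 0.98 and 0.46. ADM, the vasodilator peptide adrenomedullin, had 132, 179 and 169 CPM in PANC-1, 1.94, 1.37 and 1.43 in MDA-MB-468 and 4.25, 3.93 and 5.01 in WiDr. BNIP3, a mitophagy receptor, had 154, 207 and 194 CPM in PANC-1, 17.2 to 18.3 in MDA-MB-468 and 0.322 to 0.472 in WiDr. The glycolytic genes PGAM1, ALDOA, PFKP, LDHA and PKM, the regulator PFKFB4 and ANKRD37 were the other 7. HK2, the inducible hexokinase, was lower at 9.04, 6.53 and 6.72 CPM against 101, 140 and 121 in MDA-MB-468 and 63.1, 61.3 and 59.8 in WiDr. CA9, the carbonic anhydrase induced by hypoxia, the glucose transporter gene SLC2A1 and EGLN3 were lower as well.

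Mitosis genes were higher than in both lines for 7 of 25 (12.0% of all genes) and lower for none, and 22 were higher than in WiDr (23.7% of all genes). TPX2, a spindle assembly factor, had 681, 605 and 623 CPM in PANC-1, 182, 219 and 210 in MDA-MB-468 and 98.5, 98.8 and 101 in WiDr. The other 6 were CDC25C, BUB1, AURKA, PRC1, TOP2A and CCNB1, and the count was 4 with scaling by library totals. Of 31 proteasome subunits 3 were higher, below the share of all genes, PSMC4, PSMD2 and PSMD13, and the count rose to 7 without PANC-1 replicate 1 or without MDA-MB-468 replicate 1. Of 82 cytosolic ribosomal protein genes, which have many processed copies, 1, RPS16, was higher than in both lines and 4, RPL13, RPL13A, RPL5 and RPS6, were lower, both below the shares of all genes. Without PANC-1 replicate 1 or without MDA-MB-468 replicate 1 the counts were 2 higher and 2 lower. PSMC4 and RPS16 lie on the same stretch of chromosome 19.

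CDKN2A (chromosome 9, 21967753 to 21995301) had no count in PANC-1, 98.7, 71.0 and 74.2 CPM in MDA-MB-468 and 62.3, 71.6 and 68.0 in WiDr, so that it was at least 981-fold and at least 812-fold lower (adjusted p = 3.24e-08 and 3.36e-08). It encodes an inhibitor of CDK4 and CDK6. CDKN2B, its neighbour with a like function, had no count in PANC-1 either, against 24.4, 27.1 and 26.8 CPM in MDA-MB-468 and 106, 100 and 102 in WiDr. Of 12 tested genes that reach into the 1 Mb on either side of CDKN2A, 7 (58.3%) were lower than in both lines, where 10.5% of all genes were, and none was higher. The antisense genes CDKN2A-AS1 and CDKN2B-AS1 also had no count in PANC-1, and because the strand setting of the counting is not given in the sources used here, their reads in the other lines cannot be told apart from those of their partners. MTAP, a methionine salvage enzyme gene next to CDKN2A, had 6.91, 8.83 and 10.7 CPM in PANC-1, 58.2, 73.5 and 68.6 in MDA-MB-468 and 171, 157 and 161 in WiDr, low in PANC-1 but not at 0. The tumour suppressor gene RB1, known to be lost in MDA-MB-468, had 87.1, 59.2 and 56.3 CPM in PANC-1 against at most 0.559 CPM there.

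A run of genes around PSMC4 on the long arm of chromosome 19 was higher in PANC-1. It was singled out after the values were seen. PSMC4, an ATPase of the proteasome base (39971005 to 39981441), had 2904, 3689 and 3624 CPM in PANC-1, 187, 160 and 171 in MDA-MB-468 and 118, 124 and 120 in WiDr, a log2 difference of 4.30 (SE 0.13, adjusted p = 5.21e-09) and 4.82 (SE 0.14, adjusted p = 3.01e-09). Of 52 tested genes that reach into the 1 Mb on either side, 26 (50%) were higher than in both lines, against 12.0% of all genes, and 4 were lower. From FBXO17, 1018 kb before PSMC4, to AKT2, 282 kb after it, 26 of 29 tested genes were higher, with medians of 3.38 and 3.39, and among the 23 tested genes beyond AKT2 none was. AKT2 is the last gene called higher in this window, so the lack of higher genes beyond it follows from the choice of border. The count of 26 of 29 is raised by the same choice. The 3 in the first part that were not called were NCCRP1, FCGBP and CNTD2. FBXO17 is the first gene of the window, so where the run begins was not examined. PPP1R14A, named above among the 15 genes furthest above both lines, lies before the window on the same chromosome (38251237 to 38256591).

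AKT2, a survival kinase, had 1790, 1582 and 1571 CPM in PANC-1, 142, 150 and 142 in MDA-MB-468 and 152, 168 and 158 in WiDr, with differences of 3.51 (SE 0.10) and 3.37 (SE 0.10). The next tested gene, C19orf47, had 19.5, 20.3 and 17.3 CPM in PANC-1, overlapping MDA-MB-468 (18.1 to 19.8; log2 difference -0.00, adjusted p = 0.981) and WiDr (14.8 to 17.4; 0.25, adjusted p = 0.0542). The level thus changed between neighbouring genes. Other members of the run were PAF1, a subunit of an elongation complex, at 1407, 1609 and 1603 CPM, SUPT5H, an elongation factor, at 1897, 1441 and 1646, and FBL, the nucleolar methyltransferase fibrillarin, at 2791, 4196 and 4508, while no library of the other lines exceeded 124 CPM for PAF1, 238 for SUPT5H or 470 for FBL. The kinase gene DYRK1B and the Notch ligand gene DLL3 had 188, 156 and 171 CPM and 80.7, 126 and 133 CPM in PANC-1 against at most 21.1 and 3.84 CPM elsewhere. Summed over the 26 genes the level was 22372, 27714 and 29769 CPM in PANC-1, 2855, 2301 and 2427 in MDA-MB-468 and 2678, 2973 and 2875 in WiDr. RPS16, with 5115, 9137 and 10688 CPM in PANC-1, made up the largest share of that sum in PANC-1. Copy number was not measured here.

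**Figure D4:**
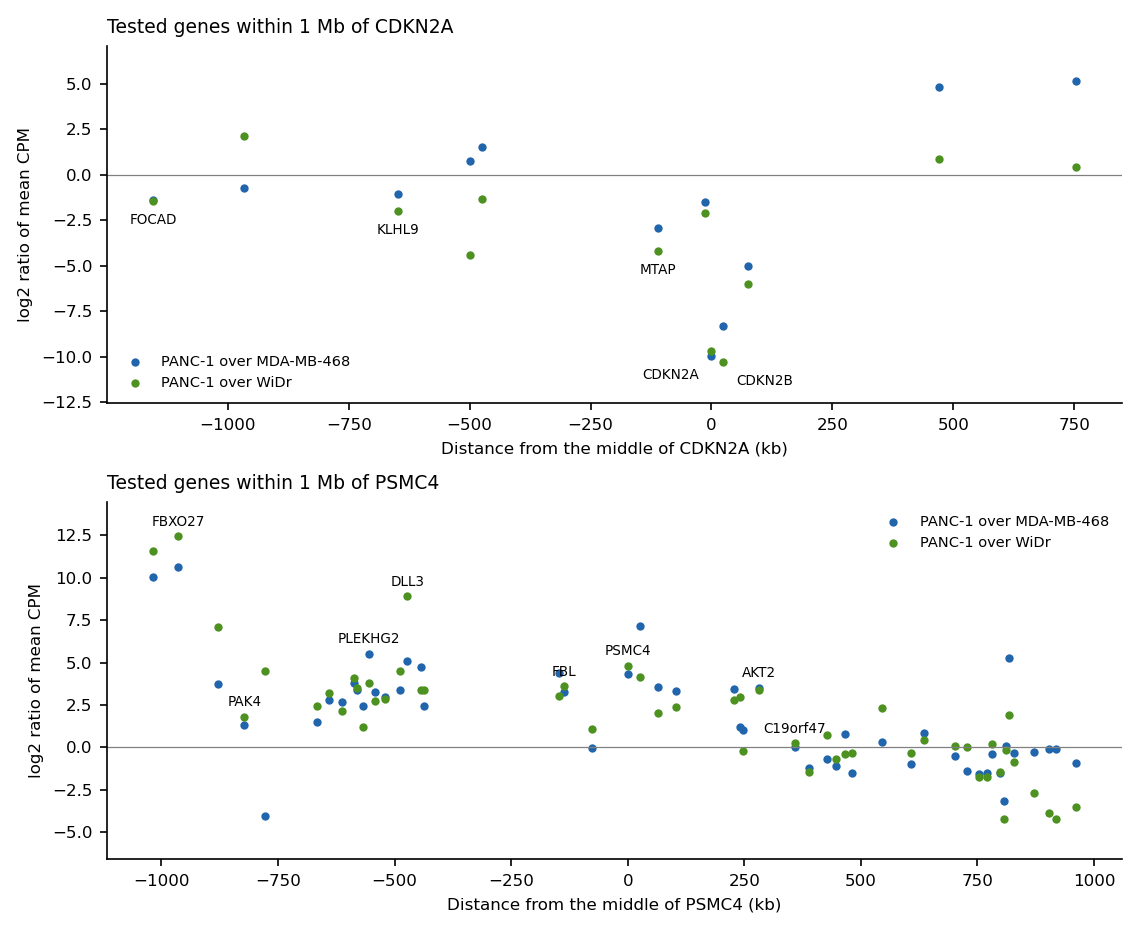
Log2 ratio of mean CPM in PANC-1 over MDA-MB-468 (blue) and over WiDr (green) for each tested gene within 1 Mb of CDKN2A (top) and of PSMC4 (bottom), against the distance of the gene's middle in kb; group means were raised to 3 counts per library where lower. CDKN2A and CDKN2B are the lowest points of the top panel, and in the bottom panel most genes up to AKT2 lie above 0, at a median near 3.38, and most of those beyond it lie around or below 0.

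Over whole chromosomes, among the 1855 higher and 1629 lower genes with an annotation, the share of higher genes was largest on chromosome 10, with 132 of 614 tested genes higher (21.5%) and 40 lower (6.51%), and it was smallest on chromosome 4 (8.39%, with 15.5% lower). Chromosome 10 carries VIM, ZEB1, RET, PGAM1 and BNIP3 named above, and also AKR1C1 and AKR1C2, which were lower.

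The same comparison was made in the libraries with targeting hairpins, which are other cultures of the same lines. With hairpin 1, 2421 of 16390 genes tested were higher in PANC-1 than in both lines (14.8%) and 1501 lower (9.16%). In the libraries labelled hairpin 2 they were 2308 of 16259 (14.2%) and 1675 (10.3%). Of the 1935 genes higher in the controls 1648 (85.2%) were also called higher with hairpin 1, which is 68.1% of the genes called there, and 1611 (83.3%) in the libraries labelled hairpin 2, 69.8% of those called there. Of the 1695 lower genes 1185 (69.9%) were lower with hairpin 1, 78.9% of the genes called there, and 1233 (72.7%) in those labelled hairpin 2, 73.6%. Called in the controls and with both hairpins were 1555 higher genes (80.4% of the control calls) and 1075 lower ones (63.4%). The difference between control and hairpin libraries was not tested.

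By group, all 16 higher mesenchymal genes, all 12 higher collagens, all 10 higher cytokines, all 9 higher HOX genes and all 26 genes of the PSMC4 run were also called with both hairpins, as were 25 of the 28 lower epithelial genes. The lower genes of these lists recurred less. None of the 3 collagens, 2 cytokines and 2 mesenchymal genes was called lower with both hairpins, while 2 of the 3 HOX genes were. Of the 8 lower integrins and laminins 4 were. Mitosis genes were also called less completely, 3 of 7 with hairpin 1 and 2 of 7 in the libraries labelled hairpin 2. VIM had means of 6515 CPM with hairpin 1 and 5684 in those labelled hairpin 2 in PANC-1, with differences from MDA-MB-468 of 9.43 and 9.05. CDH1 had means of 14.3 and 9.85 CPM in PANC-1 in the libraries of hairpin 1 and those labelled hairpin 2, with differences from WiDr of -4.92 and -5.63. CCL2 had means of 146 and 133 CPM there, and COL11A1 had 312 and 251 CPM. CDKN2A was at 0 in all PANC-1 libraries but 1, which had 0.0805 CPM with hairpin 1.

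**Figure D5:**
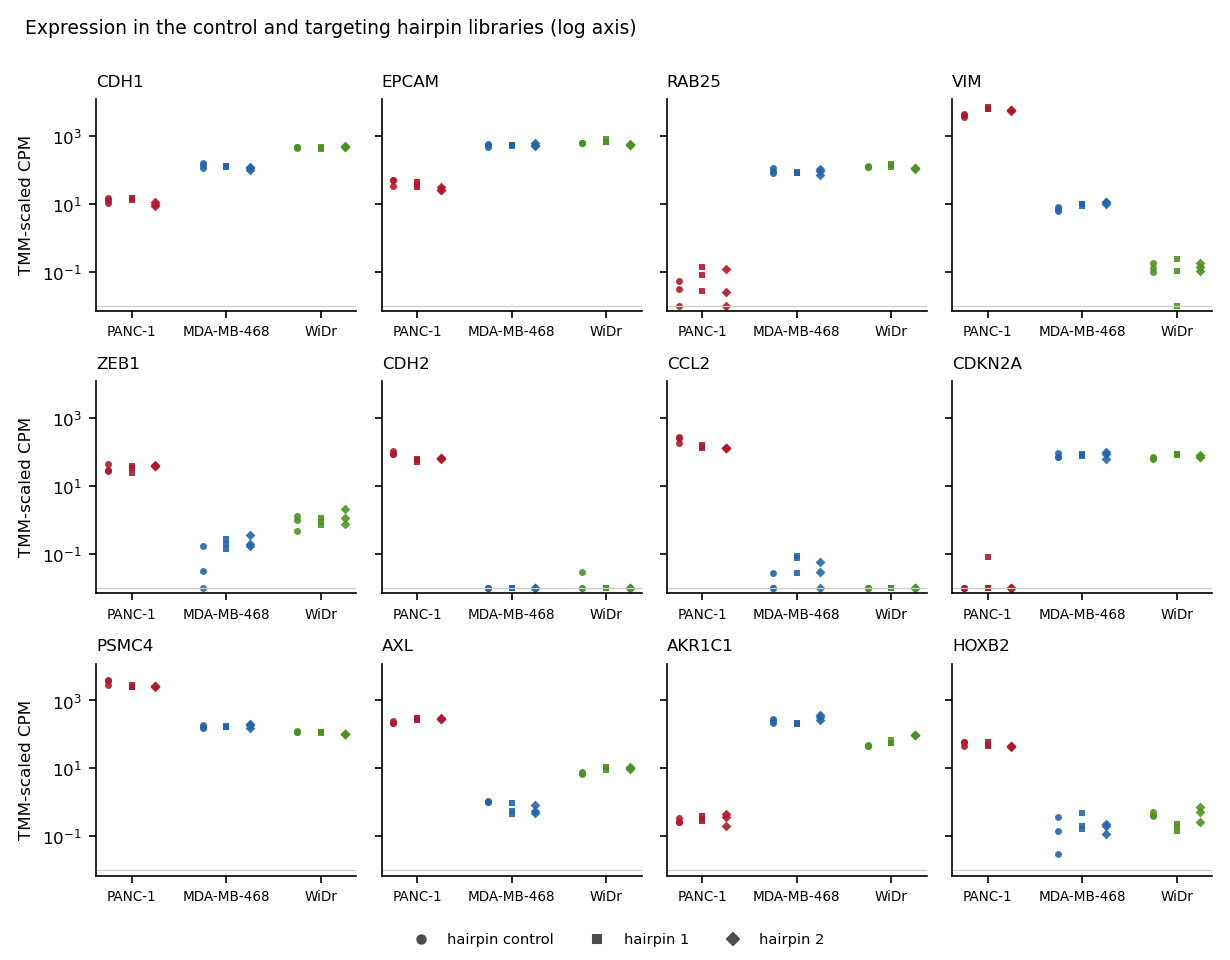
TMM-scaled CPM on a log axis of 12 genes in the hairpin control (circles), hairpin 1 (squares) and labelled hairpin 2 (diamonds) libraries of PANC-1, MDA-MB-468 and WiDr, 1 point per library, scaled over all 27 libraries; the grey line marks a count of 0. For each gene the PANC-1 libraries lie on the same side of the other lines in the 3 arms, below them for CDH1, EPCAM, RAB25, CDKN2A and AKR1C1 and above them for the other 7.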

How the data were processed

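Poly-A RNA of the 36 libraries was sequenced on a HiSeq instrument, per the labels' protocols. The deposited values are expected counts per gene symbol from RSEM 1.2.15 on Bowtie2 2.1.0 alignments to hg38, per the submitters' processing notes. Annotation and strand setting: not given in the sources used here. Of the values 12.5% were not whole, and expected counts were rounded. No per-sample column was left unassigned (0).

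The 9 hairpin control libraries were fitted together with edgeR 4.0.16 in R 4.3.3 (TMM scaling, filterByExpr, quasi-likelihood test, Benjamini-Hochberg adjustment), which tested 16112 of 26475 symbols. A call needed an adjusted p under 0.05 and a log2 difference of at least 1. The hairpin libraries were fitted separately, each arm alone. DESeq2 1.42.0, limma 3.58.1 (voom), other scalings, filters, control libraries and fits without each library were alternatives. The replicates are taken as separate cultures as described by the submitters, and p-values measure only the spread between them. GENCODE 29 gave coordinates and types for 24519 symbols (92.6%), and transcript lengths were checked over 13521 genes. The fits were tested on simulated data.

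Named genes were the 15 furthest above and the 15 furthest below both lines (mean of at least 5 CPM in the higher lines), up to 6 called members of each list and direction, fixed genes such as CDH1 and VIM, and the genes near PSMC4. Ribosomal RNA genes, sex-linked markers and the gene addressed by the hairpins were left out, and the last is not reported here. Gene lists and members were chosen with earlier results of these data known. Genes that share reads with near-identical copies or overlap others (AKR1C, HLA and ribosomal protein genes, ZNF780A and ZNF780B, MIA and its readthrough) are uncertain.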

Additional observations from a re-analysis of the deposited data

How the results depend on the processing

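Counts of called genes are given in the order different from MDA-MB-468, different from WiDr, higher than in both and lower than in both, and were 6960, 7466, 1935 and 1695. Without a minimum difference they were 11202, 11694, 3460 and 3046, and with a minimum of 2 on the log2 scale 4020, 4261, 1081 and 950. With no minimum the genes higher and lower than in both were 4277 and 3445 with hairpin 1 and 4159 and 3635 in libraries labelled hairpin 2, and with a minimum of 2 they were 1417, 729, 1352 and 879. All other alternatives moved these counts by less than 1.5 times, among them DESeq2 (6990, 7475, 1962 and 1697), limma voom (6981, 7434, 1938 and 1684), library totals (1804 higher and 1804 lower) and the WiDr guide controls (1905 and 1767). Leaving out 1 library gave 6941 to 7182, 7305 to 7809, 1932 to 2046 and 1608 to 1814, and in the hairpin libraries 2397 to 2521 and 1474 to 1648, and 2311 to 2407 and 1647 to 1703. Deviations of same-numbered libraries of different lines correlated at -0.47 to 0.10 and those of others at -0.32 to 0.54. These deviations include the differences by transcript length given above, so they cannot decide whether replicate numbers pair the libraries. With the replicate block the counts were 6806, 7318, 1891 and 1641, with hairpin 1 they were 2381 and 1488, and in libraries labelled hairpin 2 they were 2308 and 1637. Of the values of single named genes 9006 kept direction and call, 134 lost the call, 1 gained it, and 1 turned, MX2 against WiDr with the guide controls (-0.0880). At these depths the lack of a count in a line does not show that a transcript was absent. The floor of 3 counts per library was a setting chosen for the ratios and not a measured limit.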

Other observations

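The shares that follow are over all tested genes of a chromosome, the regions around CDKN2A and PSMC4 included. Besides chromosome 10, chromosomes 18 (17.3%), X (16.2%), 16 (14.8%) and 17 (14.4%) had the largest shares of higher genes, beside 12.0% of all genes. After chromosome 4, chromosomes 8 (8.45%), 22 (8.48%), 1 and 9 (9.18% each) had the smallest. The share of lower genes was 17.7% on chromosome 13 (49 of 277), 15.9% on chromosome 8 and 15.3% on chromosome 9, against 10.5% of all genes. The median difference from MDA-MB-468 was -0.85 on chromosome 21, and that from WiDr was -0.79 on chromosome 4.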
